A study of Mus musculus with 1646 samples.

Results

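The expression of 10 genes for mesenchymal patterning transcription factors was examined in single cells of the mouse colon. The genes were *Tcf21*, *Twist1*, *Tbx2*, *Tbx3*, *Tbx18*, *Meox1*, *Meox2*, *Nkx2-3*, *Prrx1* and *Pitx1*, and they were chosen by name. All 10 of these symbols mapped to a row of the count table, which holds 46517 genes. The data were 1646 SmartSeq2 libraries, each from 1 sorted cell of adult male mice aged 10 to 20 weeks on a C57Bl6/J background. The mice carried a reporter in which regulatory sequence of the named gene drives a fluorescent protein, and 761 cells came from PdgfrbGFP, 567 from Acta2GFP, 91 from Cspg4dsRED and the remainder from PdgfraGFP mice. The study's sorts selected on reporter signal, on antibody staining of PDGFRα or PDGFRβ, or on both, and the labels do not say which was used for a cell. Cells positive for the endothelial protein CD31 were excluded at sorting, and elastase was added to the enzymes that dissociated the tissue of Acta2GFP mice. Every cell carried a reporter, and the comparisons are between cell classes and between lines.

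Patterning transcription factors assign position and identity to embryonic mesenchyme, and many stay active in the connective tissue cells of the adult organ. TCF21 and TWIST1 are basic helix-loop-helix (bHLH) proteins that bind DNA as dimers with E-proteins and are held back by ID proteins. TBX2 and TBX3 are T-box repressors, and TBX18 is a T-box protein known from the precursors of smooth muscle and pericytes. MEOX1, MEOX2, NKX2-3, PRRX1 and PITX1 are homeodomain proteins, of which NKX2-3 is known for its role in the mesenchyme of the gut and spleen, and PITX1 for its role in the hindlimb and hindgut.

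The labels put each cell in 1 of 8 clusters. Clusters 7 (13.6% of the cells), 5 (25.8%), 1 (29.3%), 6 (2.73%) and 2 (7.96%) are fibroblasts, listed here from the base of the colonic crypt to its apex, the surface of the mucosa. Clusters 4 (pericytes, 8.63% of the cells), 3 (vascular smooth muscle cells, SMC, 8.57%) and 8 (interstitial SMC, 3.402%) are mural cells. Marker levels were mostly as these names say. The 6 apex genes (*Tnc*, *Il1rl1*, *Ptgs2*, *Lama5*, *Foxl1* and *Bmp7*) summed to 4138 to 4504 counts per 500000 in cluster 2 of the 3 lines and to at most 837.8 in any other cluster. Of these, *Bmp7* came near the apex in cluster 6 (350.2 against 398.1 on average). The 5 pericyte genes (*Rgs5*, *Kcnj8*, *Abcc9*, *Notch3* and *Mcam*) summed to 4736 to 5900 in cluster 4 and to at most 1897 elsewhere. *Rgs5* made up most of this, and *Mcam* was higher in vascular SMC (539.4 on average) than in pericytes (397.6). Of 3 deep mucosal genes, *Cd34* and *Wnt2* were highest in cluster 7, but *Wnt2b* was highest in cluster 1 (99.1 against 30.2 in cluster 7). Cluster 6 stood apart in 5 smooth muscle genes, which summed to 590.6 in 1 line and 1779 in the other, against at most 329.4 in the other fibroblast clusters. *Acta2* (908.5 on average) and *Tagln* (220.2) made up most of this. *Des* was low in cluster 6 (2.53) and at the apex (2.38), against 52.7, 31.05 and 30.3 in clusters 7, 5 and 1. Cluster 6 also lay above the other fibroblast clusters in the 5 pericyte genes, with 205.2 and 211.9 against at most 127.1. *Kcnj8* (103.1 on average) and *Abcc9* (101.4) made up most of that sum, while *Rgs5* had 3.01. The authors had removed cells with endothelial or immune signatures and cells with neither *Pdgfra* nor *Pdgfrb*. Of the markers of other cell types, 5 immune genes summed to at most 26.6 and 5 epithelial genes to at most 40.5 counts in any cluster and line, and the 3 mesothelial genes were at 0 in 7 of the 8 clusters. The endothelial list reached 229.5 in a line of cluster 7 and 148.5 in one of cluster 5, of which *Tek* made up most, while *Cdh5* was at or under 0.687 on average in every cluster. Among fibroblasts a marker of the interstitial cells of Cajal moved with the apex: *Ano1* had 98.1 to 219.6 in cluster 2 and at most 54.01 in any line of clusters 1 and 6, while *Kit*, their defining receptor, was at 0.503 on average in cluster 2. Of the interstitial SMC pair, *Rgs10* was also highest among fibroblasts at the apex (251.5 to 354.4), where *Hhip* had 3.397 on average. The part of these cells in the results was not tested.

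A cell had between 47598 and 1494292 counts on genes, and the 21 sums of a cluster within a reporter line with at least 10 cells ranged from 2202988 to 85478239 counts. A level below is the mean over the cells of such a sum after each cell was scaled to 500000 counts, and it is given per line or as mean ± SD over lines. The labels name no mouse, so the line was taken as the sample, and its spread holds that of strain and dissociation too. Because the study's own clustering used these counts, tests between clusters describe the clusters and are not independent of their making. Reads are not independent molecules, so the intervals and limits of shares cover counting error only. Shares called thinned were taken after each cell was reduced at random to 50000 counts, which left out 11 shallower cells.

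For 6 of the 10 genes the RefSeq promoter table of GRCm38.p6 held an entry, and those of 3 genes are shown because *Twist1* and *Prrx1* were both lower at the crypt apex and *Tcf21* had the highest level of all 10. *Meox1*, *Tbx2*, *Tbx3* and *Pitx1* had no entry. Each sequence runs 5′ to 3′ over the 250 bases before the start of transcription in RefSeq, and capitals mark the TATAAA motif. The regions are chr10:22820144-22820393 (minus strand) for *Tcf21*, chr12:33957421-33957670 (plus strand) for *Twist1* and chr1:163313651-163313900 (minus strand) for *Prrx1*.
Tcf21: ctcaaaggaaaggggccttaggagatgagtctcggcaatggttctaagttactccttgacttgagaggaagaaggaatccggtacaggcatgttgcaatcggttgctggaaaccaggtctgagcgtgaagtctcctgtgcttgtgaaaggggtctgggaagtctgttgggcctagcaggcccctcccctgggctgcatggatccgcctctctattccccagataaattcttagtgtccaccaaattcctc
Twist1: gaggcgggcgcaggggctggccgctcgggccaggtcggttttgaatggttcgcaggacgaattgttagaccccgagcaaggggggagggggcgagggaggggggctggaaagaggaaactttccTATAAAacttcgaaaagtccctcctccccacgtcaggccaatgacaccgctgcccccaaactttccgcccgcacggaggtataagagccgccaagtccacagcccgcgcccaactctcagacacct
Prrx1: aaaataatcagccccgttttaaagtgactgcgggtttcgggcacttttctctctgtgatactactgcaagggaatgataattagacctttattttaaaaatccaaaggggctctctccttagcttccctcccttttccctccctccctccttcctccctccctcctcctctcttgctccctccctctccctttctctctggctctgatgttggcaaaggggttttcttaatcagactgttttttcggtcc
The E-box CANNTG, to which bHLH dimers bind, was found in none of the 3 windows shown and once in each of those of *Nkx2-3*, *Meox2* and *Tbx18*, so 3 of the 6 hold one, beside 66.2% of 32817 promoter windows of the same length. The motif TATAAA, present in *Twist1* and *Meox2*, is held by 12.4%. GTGGGAA (RBPJ, 5.42%) was found in *Nkx2-3* and *Tbx18*. TCACACC (T-box, 3.33%), TGTTTAC (forkhead, 3.16%), CTTTGAT (TCF/LEF, 3.21%) and GACCACCC (GLI, 0.704%) had no match in the 6 windows. Both strands were searched, none of these motifs contains another, and a match or its absence describes letters only. The *Twist1* window had 62.4% G and C and 18 CG pairs, against 47.6% and 4 for *Prrx1*, 52.4% and 5 for *Tcf21*, and medians of 52.4% and 6 over all windows.

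The 10 genes differed in which cells held them and in how many. *Tcf21*, *Nkx2-3* and *Pitx1* were seen in most fibroblasts, with a count in 97.1%, 83.2% and 77.3% of them. *Tbx3* and *Meox1* were high in apex fibroblasts, *Tbx2* in mural cells, and *Twist1*, *Prrx1*, *Meox2* and *Tbx18* were carried by few cells. Per kilobase of exon, *Tcf21* led in cluster 1 with a mean level of 274.7 counts per 500000, ahead of *Pitx1* (54.1) and *Nkx2-3* (49.1). In apex fibroblasts *Tcf21* had 104.6 per kilobase, followed by *Nkx2-3* (67.2), *Pitx1* (33.4), *Tbx3* (26.2) and *Meox1* (24.2). In vascular SMC the order was *Nkx2-3* (44.5), *Tbx2* (20.0), *Tcf21* (13.8), *Meox2* (9.80) and *Tbx3* (7.48).

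**Figure D1:**
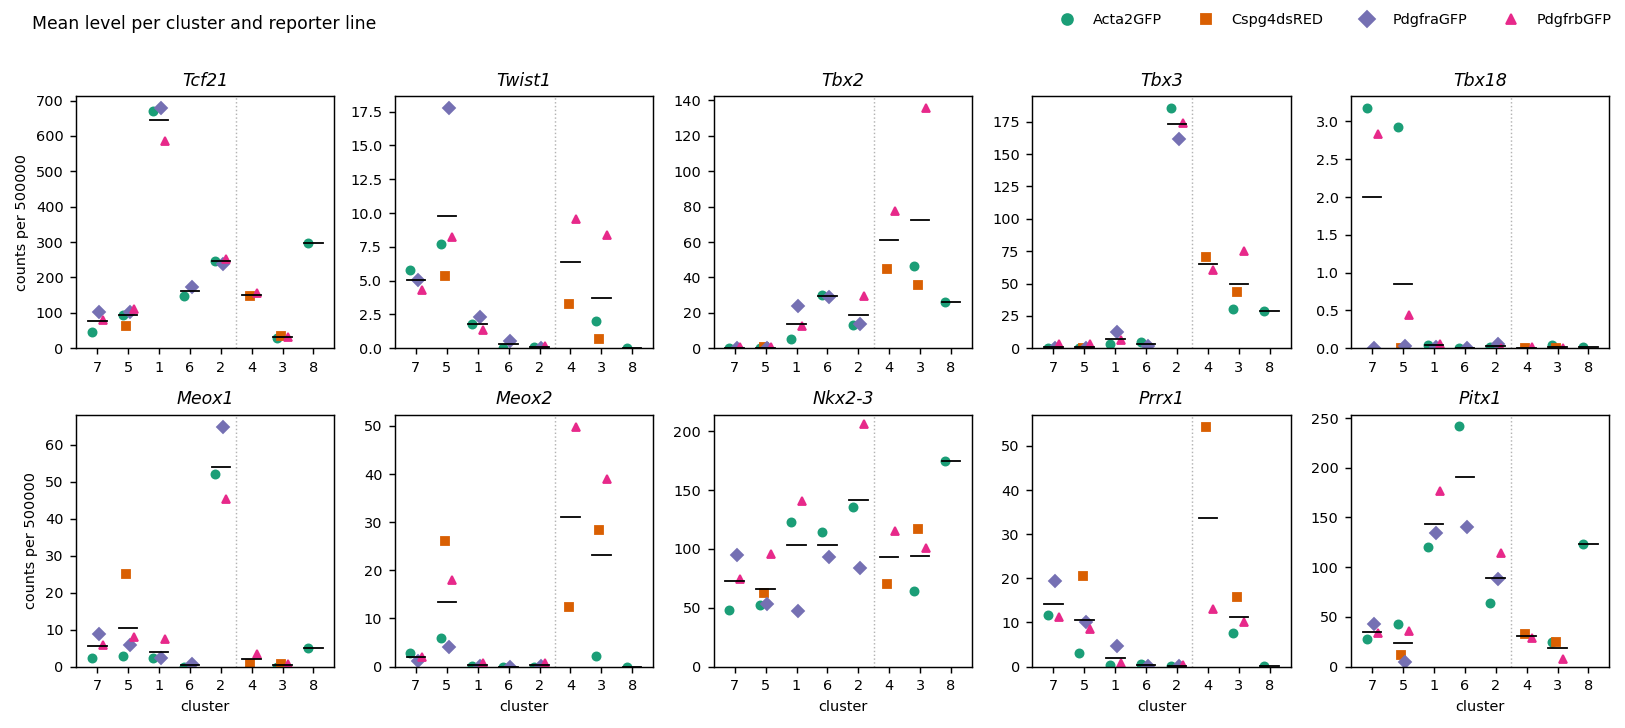
Mean level of each gene (vertical axes, counts per 500000, each panel with its own scale from 0) in the 8 clusters (horizontal axes, fibroblasts 7, 5, 1, 6 and 2 left of the dotted line, mural clusters 4, 3 and 8 right of it). Points are reporter lines with at least 10 cells and bars are means over lines: the 3 apex points of *Tbx3* (161.7 to 185.3) and *Meox1* (45.2 to 64.9) lie above those of every other cluster, and *Tcf21* is highest in cluster 1 (585.2 to 679.3).

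In all, 8 comparisons were made with the quasi-likelihood test of edgeR, adjusted over all genes tested by the Benjamini-Hochberg method, at a threshold of 0.05. Between fibroblasts and mural cells 1 of the 10 genes was called (lower in fibroblasts), where 6.57% of 19173 genes were called in either direction. Between apex fibroblasts and the mean of clusters 1, 5 and 7 there were 5 (3 higher and 2 lower at the apex), where 6.28% of 21739 genes were called. This comparison takes the mean of the 3 clusters on the log2 scale, which weighs a single high cluster less than a mean of levels does. Between clusters 7 and 1 there were 2, both lower in cluster 7, against 0.488% of all genes, and between clusters 6 and 2 there were 2, both lower in cluster 6, against 0.957%. Pericytes and interstitial SMC each differed from vascular SMC in 1 gene, the same gene and both times higher, against 0.819% and 1.01% of all genes. Interstitial SMC had 1 sum, that of Acta2GFP, so each test of them has no spread of its own and takes it from the other sums. The median log2 fold change of the 10 genes was 0.77 at the apex, -0.22 in fibroblasts against mural cells, -0.22 in cluster 7 against 1 and -0.69 in cluster 6 against 2, beside -0.09, -0.03, -0.10 and -0.18 for all genes tested. Against vascular SMC it was 0.26 in pericytes and 0.16 in interstitial SMC, beside 0 and -0.19 for all genes. The apex comparison and that of clusters 6 and 2 share the apex sums, the apex comparison and that of clusters 7 and 1 share the sums of clusters 1 and 7, and both mural comparisons share those of vascular SMC. With the reporter line as a replicate block, 3.08% of genes were called between fibroblasts and mural cells and 0.773% between clusters 7 and 1, and all 12 calls of the members remained. Fibroblasts against mural cells had log2 fold changes of 2.79 for *Meox1* and -1.40 for *Tbx3*. EdgeR called neither (adjusted p of 0.112 and 0.210), but each was called under 2 of 10 alternatives. The direction of the calls over all genes depended on the tool: of the genes edgeR called, 70.4% were higher at the apex, 75.8% in pericytes and 87.2% in interstitial SMC, and of those DESeq2 called, 45.9%, 53.1% and 46.3%.

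**Figure D2:**
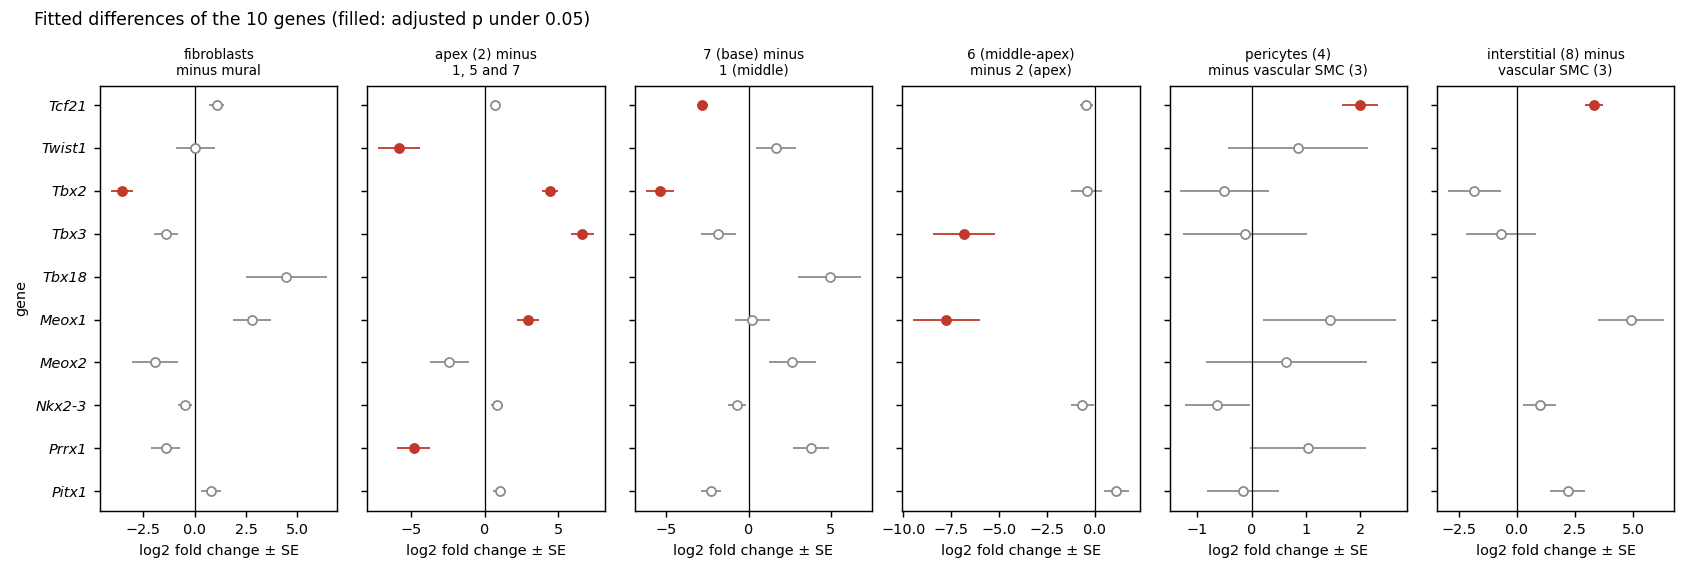
Log2 fold change ± standard error (horizontal axes, each panel with its own range) of the 10 genes (vertical axis) in 6 comparisons, from edgeR, with filled red points where the adjusted p was under 0.05. The 12 filled points fall on 6 genes, and the *Tbx3* and *Tbx2* points of the apex panel lie at 6.63 and 4.44, while 10 points are left out because a group held 3 counts or fewer.

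*Tcf21* (ENSMUSG00000045680, chromosome 10 from 22817281 to 22820174, minus strand, GRCm38) encodes a bHLH factor known from fibroblasts of the heart, lung and kidney. Its level in cluster 1 was 671.2 in Acta2GFP, 679.3 in PdgfraGFP and 585.2 in PdgfrbGFP. In cluster 7 it was 45.2, 101.4 and 80.3 in the same lines, and in cluster 5 it lay between 61.8 and 112.1 in the 4 lines. No line of clusters 5 and 7 came near cluster 1, and clusters 5 and 7 overlapped each other. The gene was lower in cluster 7 than in cluster 1 by 2.81 on the log2 scale (standard error 0.32, edgeR adjusted p = 0.00012), a call held under all 10 alternative settings. Cluster 6 had 148.1 in Acta2GFP and 173.97 in PdgfraGFP and apex fibroblasts 245.7 ± 6.90 (SD, n = 3 lines), so the level was highest in the middle of the axis and not at an end. Every apex value thus lay below cluster 1 and above clusters 5 and 7. Against the mean of the log2 values of these clusters the apex difference of 0.70 (standard error 0.23) missed the threshold (edgeR adjusted p = 0.0902), but DESeq2 called it (adjusted p = 0.0321), as did edgeR with plates in place of lines (0.0100).

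In mural cells *Tcf21* had 146.5 counts per 500000 in the pericytes of Cspg4dsRED and 156.2 in those of PdgfrbGFP. Vascular SMC had 29.2 in Acta2GFP, 35.3 in Cspg4dsRED and 32.5 in PdgfrbGFP, and the 52 interstitial SMC of Acta2GFP, the sole line with a usable sum, had 298.7. The 3 classes did not overlap. Pericytes were higher than vascular SMC by a log2 fold change of 2.00 (standard error 0.34, edgeR adjusted p = 0.00467), a call lost without the PdgfrbGFP line (adjusted p = 0.215). Interstitial SMC were higher by 3.31 (standard error 0.39, edgeR adjusted p = 9.69e-05) in a fit that assumes the lone sum to vary like the others, and this call held under all 9 alternatives, with values of 3.22 to 5.05. After each cell was thinned to 50000 counts, *Tcf21* was seen in all 54 interstitial SMC, in 70.7% of pericytes and in 41.4% of vascular SMC. The mural class held different clusters in each line: 52 of the 84 cells of Acta2GFP were interstitial SMC, against 4 of those of PdgfrbGFP and 0 of Cspg4dsRED. Over fibroblasts and mural cells as classes, the levels were 304.3, 168.4, 310.9 and 312.4 in fibroblasts of Acta2GFP, Cspg4dsRED, PdgfraGFP and PdgfrbGFP and 200.3, 93.5 and 108.2 in mural cells of the lines other than PdgfraGFP, and the log2 fold change of 1.07 was not called (edgeR adjusted p = 0.120).

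*Twist1* (chromosome 12 from 33957671 to 33959829, plus strand) encodes a bHLH factor best known for its role in mesoderm and in epithelial-mesenchymal transition. It had 5.75, 5.05 and 4.31 counts per 500000 in cluster 7 of Acta2GFP, PdgfraGFP and PdgfrbGFP, and 5.37 to 17.7 in cluster 5 of the 4 lines. Cluster 1 had 1.38 to 2.33, and the apex sums of these 3 lines held 1, 0 and 3 counts in all, at a level of at most 0.198. Cluster 6 had 0 in Acta2GFP and 0.560 in PdgfraGFP, from 2 counts. The apex was lower than every line of clusters 1, 5 and 7, by a log2 fold change of -5.83 (standard error 1.43, edgeR adjusted p = 0.0155). The size of this fold rests on very few apex counts: with means of log2 values per cell in limma it was -0.49 (adjusted p = 0.0125), and leaving out the Acta2GFP, PdgfraGFP or PdgfrbGFP line ended the call (adjusted p of 0.189, 0.102 and 0.0927). The transcript was carried by a minority of cells even where it was highest: 17.7% of cluster 7 and 12.3% of cluster 5 cells had a count after thinning, against 0 of the apex cells (95% Clopper-Pearson interval up to 2.78%), of which 3.05% had a count as deposited. In cluster 5, the 5 highest cells held 41.3% of the summed level.

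*Tbx2* (chromosome 11 from 85832551 to 85841948, plus strand) encodes a T-box repressor. Its level was 46.5, 35.5 and 135.5 in the vascular SMC of Acta2GFP, Cspg4dsRED and PdgfrbGFP, and 44.97 and 77.5 in the pericytes of the latter lines. Over mural cells, with interstitial SMC in the majority in Acta2GFP, that line had 33.1, Cspg4dsRED 40.5 and PdgfrbGFP 101.3. Over fibroblasts it was 3.77 in Acta2GFP, 3.25 in Cspg4dsRED, 13.7 in PdgfraGFP and 7.29 in PdgfrbGFP. Every class value of mural cells thus lay above every class value of fibroblasts. By cluster this did not hold. Interstitial SMC of Acta2GFP had 26.01, below cluster 6 of Acta2GFP (30.1) and PdgfraGFP (28.7) and the apex of PdgfrbGFP (29.3). The log2 fold change of fibroblasts against mural cells was -3.56 (standard error 0.53, edgeR adjusted p = 0.00452), and without the PdgfrbGFP line it was -3.11 and no longer called (adjusted p = 0.0709). Over the alternatives the value ran from -4.12 to -2.22.

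Within fibroblasts *Tbx2* was lowest in clusters 5 and 7, where no line passed 0.632, and where the highest single cell had 12.3 counts per 500000. Cluster 1 had 5.10, 24.1 and 12.8 in Acta2GFP, PdgfraGFP and PdgfrbGFP, cluster 6 had 30.1 and 28.7 in the first 2 of these lines, and the apex had 12.9, 13.5 and 29.3. Clusters 1, 6 and 2 thus overlapped or nearly met, and all lay above clusters 5 and 7 in each line. The gene was higher at the apex than in clusters 1, 5 and 7 (log2 fold change 4.44, standard error 0.53, edgeR adjusted p = 1.7e-05) and lower in cluster 7 than in cluster 1 (-5.37, standard error 0.87, adjusted p = 0.00494). The latter call was lost without the Acta2GFP, PdgfraGFP or PdgfrbGFP line (adjusted p of 0.192, 0.0622 and 0.0501). With means of log2 values per cell in limma the same differences were 0.66 (adjusted p = 0.376) and -0.80 (adjusted p = 0.697). These levels came from few cells: after thinning, a count was seen in 15.2% of cluster 1, 20.0% of cluster 6 and 18.3% of apex cells, and the 5 highest cells held 66.1% of the summed apex level and 92.6% of that of cluster 6. In vascular SMC 59.3% of cells had a count after thinning, and 44.7% had at least 50 counts per 500000.

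*Tbx3* (chromosome 5 from 119670669 to 119684724, plus strand), the closest relative of *Tbx2* among the 10 genes, had the steepest apex difference. Its level in apex fibroblasts was 185.3 in Acta2GFP, 161.7 in PdgfraGFP and 173.8 in PdgfrbGFP. Cluster 1 had 3.07, 12.3 and 6.54 in these lines, cluster 6 had 4.81 and 1.42 in the first 2, and no line of clusters 5 and 7 passed 3.45. No other fibroblast cluster came near the apex, and the log2 fold change against clusters 1, 5 and 7 was 6.63 (standard error 0.79, edgeR adjusted p = 1.56e-05), called under all 10 alternatives. Cluster 6 was lower than the apex by 6.82 on the log2 scale (standard error 1.61, adjusted p = 0.0464 by edgeR), but with sums of at least 3 cells the value was -2.54 and not called (adjusted p = 0.429), a setting that adds the 9 cluster 6 cells of PdgfrbGFP. It was also lost without the Acta2GFP or PdgfraGFP line (adjusted p of 0.375 and 0.129). A single cell of cluster 6 had 418.5 counts per 500000, and the 5 highest cells held 96.8% of the cluster's summed level.

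Unlike *Tbx2*, *Tbx3* was a gene of most apex cells, with a count in 87.02% of them and 78.6% after thinning (95% Clopper-Pearson interval 70.6 to 85.3), and 65.6% had at least 50 counts per 500000. Clusters 7, 5, 1 and 6 had a count in 19.7% to 33.3% of cells, which fell to between 5.45% and 12.47% after thinning. Mural cells were intermediate, with 70.2 and 60.6 in the pericytes of Cspg4dsRED and PdgfrbGFP, 28.5 in interstitial SMC and 49.6 ± 22.9 (SD, n = 3 lines) in vascular SMC. Neither comparison with vascular SMC was called by edgeR (adjusted p of 1 and 0.994), and the levels lay between the apex and the deeper fibroblasts. The antisense gene *Tbx3os1* overlaps an exon of *Tbx3*, and without a statement that strand was used in counting, the reads of the pair cannot be told apart. *Tbx3os1* had 8.69 ± 3.31 (SD, n = 3 lines) at the apex, at most 1.36 in any line of the other fibroblast clusters, and 37.5 ± 10.3 (SD, n = 3 lines) in vascular SMC, so it was highest where *Tbx3* was not.

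*Tbx18* (chromosome 9 from 87702800 to 87731260, minus strand) was nearly absent from the colon cells analysed. In all mural cells together it had 4 counts, and 1.18% of these cells had any count (95% Clopper-Pearson interval 0.322 to 2.99). Fibroblasts had 594 counts, nearly all of them in clusters 7 and 5, and the 5 highest cells held 92.7% and 93.5% of the summed levels there. Its level was 3.17 in cluster 7 of Acta2GFP, 2.84 in that of PdgfrbGFP and 0 in the 15 cells of PdgfraGFP, and 2.92 in cluster 5 of Acta2GFP. Per line these values depend on single cells, the highest of which had 207.7 counts per 500000, and no comparison of line sums was called by edgeR. With plates in place of lines edgeR called cluster 7 higher than cluster 1 (log2 fold change 5.535, adjusted p = 0.0319). The antisense transcript *D030062O11Rik* overlaps the gene, and its counts came to 19.7% of those of *Tbx18*.

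**Figure D3:**
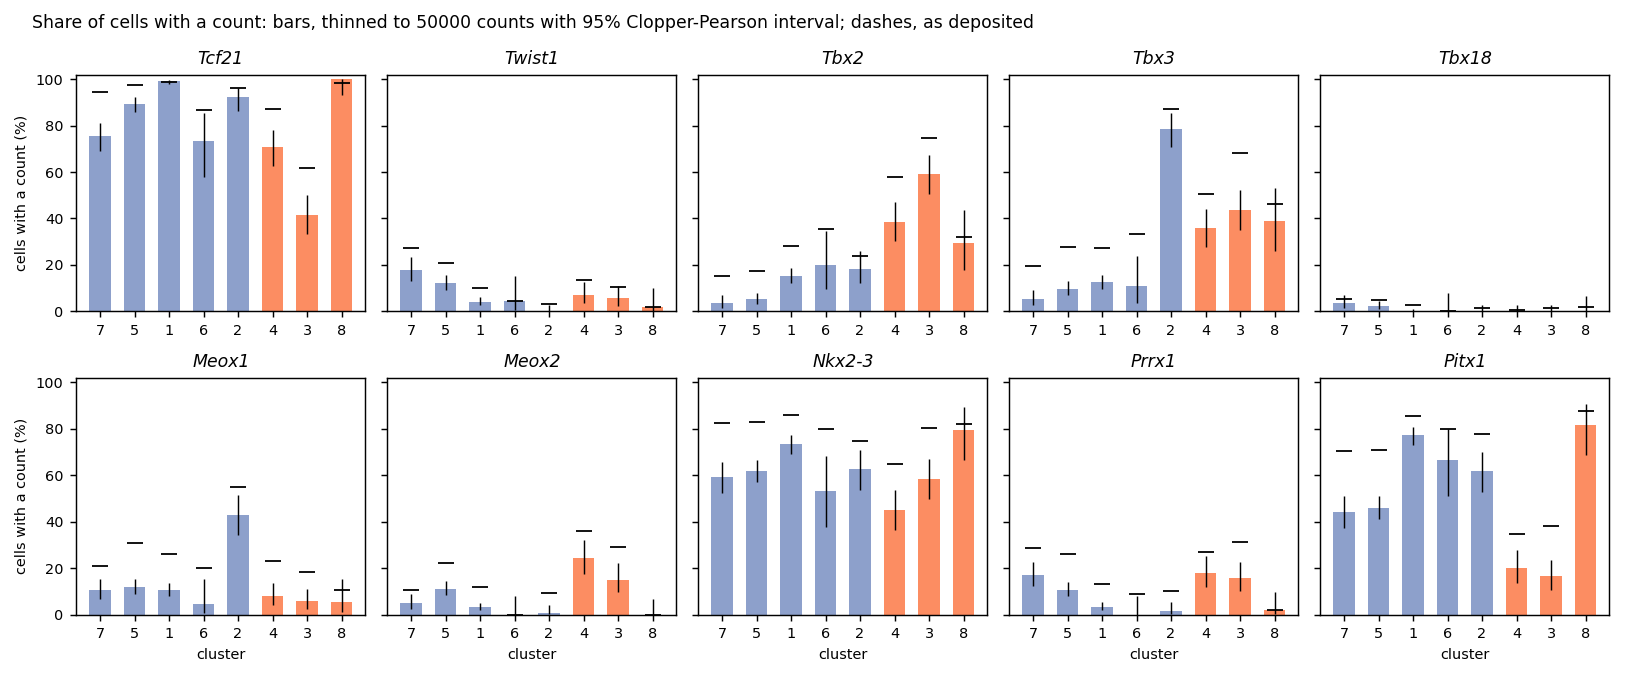
Percent of cells with at least 1 count of each gene (vertical axis) in the 8 clusters (horizontal axis, fibroblasts blue, mural cells orange). Bars are shares after thinning each cell to 50000 counts, with 95% Clopper-Pearson intervals, and dashes are shares as deposited. The apex bars of *Tbx3* (78.6%) and *Meox1* (42.7%) lie above those of the other 7 clusters, and *Tbx18* is near 0 throughout.

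*Meox1* (chromosome 11 from 101877510 to 101894374, minus strand) encodes a homeodomain factor of the somites. Its apex level was 51.9 in Acta2GFP, 64.9 in PdgfraGFP and 45.2 in PdgfrbGFP. Cluster 1 had 2.28, 2.27 and 7.42 in these lines and cluster 7 had 2.43, 8.82 and 5.75, while cluster 5 reached 25.1 in the 13 cells of Cspg4dsRED and 8.06 or less in the other lines. Every apex value lay above every other value in the colon, and the apex log2 fold change was 2.92 (standard error 0.76, edgeR adjusted p = 0.0241). The call was lost without the Acta2GFP, PdgfraGFP or PdgfrbGFP line (adjusted p of 0.153, 0.162 and 0.128), with log2 fold changes of 2.49, 2.79 and 3.32. In cluster 6, next to the apex in the listed order, it had 0 in Acta2GFP and 0.602 in PdgfraGFP, lower than the apex by 7.75 on the log2 scale (standard error 1.75, adjusted p = 0.0377 by edgeR), where 9 counts stand in all. The latter call was lost with sums of at least 3 cells (-6.82, adjusted p = 0.0731), with plates in place of lines (-7.17, adjusted p = 0.0621) and without the Acta2GFP, PdgfraGFP or PdgfrbGFP line (-7.02, -14.55 and -7.90, adjusted p of 0.352, 0.149 and 0.158). With means per cell in limma the difference was -2.72 (adjusted p = 0.000348).

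A count of *Meox1* was seen in 54.96% of apex cells and 42.7% after thinning, and 34.4% of them had at least 50 counts per 500000. The same thinned share was 10.5%, 11.8%, 10.4% and 4.44% in clusters 7, 5, 1 and 6, and 6.59% in mural cells. The thinned shares outside the apex thus lay close together, while that of the apex stood apart. Of the apex cells with *Tbx3* after thinning 43.7% had *Meox1*, as had 39.3% of those without. In interstitial SMC of Acta2GFP *Meox1* had 5.09, against 0, 0.718 and 0.591 in vascular SMC of the 3 lines, and the 5 highest cells held 99.8% of the summed level. That log2 fold change of 4.89 was not called by edgeR (adjusted p = 0.122), but it was with the reporter line as a replicate block (7.07, adjusted p = 0.0153) and by DESeq2 (adjusted p = 0.0139).

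*Meox2* (chromosome 12 from 37108540 to 37179534, plus strand), the paralog of *Meox1* and a factor known from vascular cells and muscle precursors, was found elsewhere. Its level was 28.3 and 38.9 in the vascular SMC of Cspg4dsRED and PdgfrbGFP but 2.12 in those of Acta2GFP, and 12.4 and 49.9 in the pericytes of the first 2 lines. In fibroblasts it had 5.90, 26.1, 4.08 and 17.9 in cluster 5 of Acta2GFP, Cspg4dsRED, PdgfraGFP and PdgfrbGFP, and at most 2.72 in any line of the other clusters. Not 1 count was seen in the 45 cells of cluster 6 or the 56 cells of cluster 8, which allows shares of cells with a count of up to 6.67% and 5.36% by a floor of 3 cells, and up to 7.87% and 6.375% by the 95% Clopper-Pearson interval. Against a floor of 3 counts over the 52 interstitial SMC of Acta2GFP, which is 0.203 per 500000, the share of summed counts in vascular SMC was 1.88 in the same line, from a single cell, and 14.7 and 35.2 in Cspg4dsRED and PdgfrbGFP. The difference was not called by edgeR (adjusted p = 0.241), whereas DESeq2 called it (adjusted p = 0.00452). The apex had 17 counts in all, 0.763% of its cells after thinning, where *Meox1* was highest. In the apex cells after thinning 56 had *Meox1*, 1 had *Meox2* and none had both, but 1 cell cannot show whether the genes exclude each other. In cluster 5 the numbers were 50, 47 and 10. There 21.3% of the cells with *Meox2* had *Meox1*, as had 10.6% of those without. Overlap beyond chance was not tested.

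*Nkx2-3* (chromosome 19 from 43612325 to 43615892, plus strand) had the smallest range of cluster means, as a ratio, among the 10 genes. Its mean level ranged from 65.9 ± 20.6 (SD, n = 4 lines) in cluster 5 to 135.9, 83.8 and 206.2 at the apex of Acta2GFP, PdgfraGFP and PdgfrbGFP, with 174.9 in interstitial SMC of 1 line. The values of the lines overlapped between neighbouring fibroblast clusters and between pericytes and vascular SMC. The interstitial SMC value lay above the 64.04 to 117.01 of vascular SMC, a log2 fold change of 0.99 that was not called (standard error 0.71, edgeR adjusted p = 0.770), and no other comparison called the gene. Over fibroblasts it had 85.8 ± 23.02 (SD, n = 4 lines) and over mural cells 113.6 ± 19.9 (SD, n = 3 lines), with a log2 fold change of -0.47 (edgeR adjusted p = 0.515). The thinned share was between 45% in pericytes and 79.6% in interstitial SMC, and between 53.3% and 73.4% in the fibroblast clusters.

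*Prrx1* (chromosome 1 from 163245119 to 163313710, minus strand) encodes a paired-type homeodomain factor known from limb mesenchyme and fibroblasts. It had 11.6, 19.5 and 11.2 in cluster 7 of Acta2GFP, PdgfraGFP and PdgfrbGFP, 3.01 to 20.5 in cluster 5, and 0.306, 4.59 and 0.760 in cluster 1. The apex held 1, 5 and 10 counts in these lines, at levels of 0.0215, 0.115 and 0.451, each below that of cluster 1 in the same line. The apex log2 fold change was -4.85 (standard error 1.10, edgeR adjusted p = 0.00894). The call was lost without the Acta2GFP or PdgfraGFP line (adjusted p of 0.0828 and 0.105) and with means per cell in limma (-0.65, adjusted p = 0.433). Cluster 7 lay above cluster 1 in all 3 lines, a log2 fold change of 3.80 that was not called by edgeR (standard error 1.08, adjusted p = 0.170) but was by DESeq2 (adjusted p = 0.00237) and by edgeR with plates in place of lines (adjusted p = 0.0244).

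In mural cells *Prrx1* had 54.4 in the pericytes of Cspg4dsRED and 13.1 in those of PdgfrbGFP, and 7.56 to 15.9 in vascular SMC, so these classes overlapped. The lincRNA *Gm26523* and the transcript *Gm37644* overlap *Prrx1* on its own strand, with 3.89% and 0.778% of its counts. In Acta2GFP the interstitial SMC held a single count, 0.0677 per 500000 of their sum, against 11.7 in the vascular SMC of that line and 27.9 and 11.04 in those of Cspg4dsRED and PdgfrbGFP. EdgeR did not call this difference (-7.91 on the log2 scale, standard error 2.30, adjusted p = 0.124), but it did so with sums of at least 3 cells (adjusted p = 0.0320), as did DESeq2 (adjusted p = 0.00148). *Prrx1* and *Twist1* were thus low in the same clusters, 6, 2 and 8. After thinning, 37 cells of cluster 7 had *Prrx1*, 39 had *Twist1* and 9 had both. In the same way 22 vascular SMC had *Prrx1* and 8 had *Twist1* with none having both, and in cluster 5 the numbers were 45, 52 and 4. Of the cluster 7 cells with *Prrx1* 24.3% had *Twist1*, as had 16.4% of those without, and in cluster 5 these shares were 8.89% and 12.7%. The numbers are small, and overlap or exclusion beyond chance was not tested.

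*Pitx1* (chromosome 13 from 55825051 to 55836192, minus strand) followed *Tcf21* in part. Its level was 120.5, 134.1 and 176.4 in cluster 1 of Acta2GFP, PdgfraGFP and PdgfrbGFP, 241.6 and 140.1 in cluster 6 of the first 2, and 63.7, 88.2 and 114.5 at the apex. Cluster 7 had 27.5, 42.9 and 33.5, and cluster 5 lay between 4.52 and 42.3 in the 4 lines. Each line with both clusters was thus lower in cluster 7 than in cluster 1, with a difference of -2.27 on the log2 scale (standard error 0.61) that edgeR did not call (adjusted p = 0.141), whereas DESeq2 called it (adjusted p = 0.0193). Interstitial SMC had 123.4, above the 7.48 to 24.5 of vascular SMC and the 28.4 and 32.7 of pericytes. The log2 fold change of interstitial against vascular SMC was 2.19 (standard error 0.76, edgeR adjusted p = 0.236) and was called with sums of at least 3 cells (3.22, adjusted p = 0.0279) and with means per cell in limma (3.95, adjusted p = 0.0310), and the thinned shares were 81.5% and 16.4%. The lincRNA *Gm28760* lies on the same strand, and its span overlaps exon sequence of *Pitx1*. Its 2780 counts compare with 86281 for *Pitx1*.

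Within 1 cluster the reporter lines could be compared by plate, the multiwell plate on which cells were sorted, although plates of a line may share mice. In cluster 1, 2 plates of Acta2GFP, 2 of PdgfraGFP and 4 of PdgfrbGFP had at least 10 cells. Of the 9 members tested 0 were called for Acta2GFP or PdgfraGFP against PdgfrbGFP, as were 0% of 15700 genes in both, by edgeR's quasi-likelihood test. At an unadjusted p under 0.05 edgeR had 2.77% and 6.75% of the genes, and DESeq2 called 0.146% and 2.64% after adjustment. *Nkx2-3* was the 1 member under that unadjusted threshold, with 14.1 and 66.7 counts per 500000 on the PdgfraGFP plates against 152.9, 146.3, 86.2 and 76.7 on those of PdgfrbGFP, and 122.8 and 122.3 on those of Acta2GFP. Its PdgfraGFP values lay below all others, at a log2 fold change of -1.67 (standard error 0.62, edgeR adjusted p = 0.708). Without the PdgfraGFP plate of 24 cells it was -0.92, and without that of 41 cells it was -3.40. In cluster 5 the 1 PdgfraGFP plate with at least 10 cells had 56.5, above the 49.4 and 52.97 of Acta2GFP and below the 60.5 to 106.3 of PdgfrbGFP, with a log2 fold change against PdgfrbGFP of -0.73 (edgeR adjusted p = 0.945).

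Plates of 1 line also differed. *Tcf21* had 669 and 593 counts per 500000 in cluster 1 on the larger PdgfrbGFP plates, but 220.8 and 326.3 on the plates that hold 19 and 12 of its cells. The median depth of the cells was 68394 counts on the plate of 19 and 891492 on that of 12, and 262507 and 274188 on the larger plates. The part of depth in these levels was not tested.

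**Figure D4:**
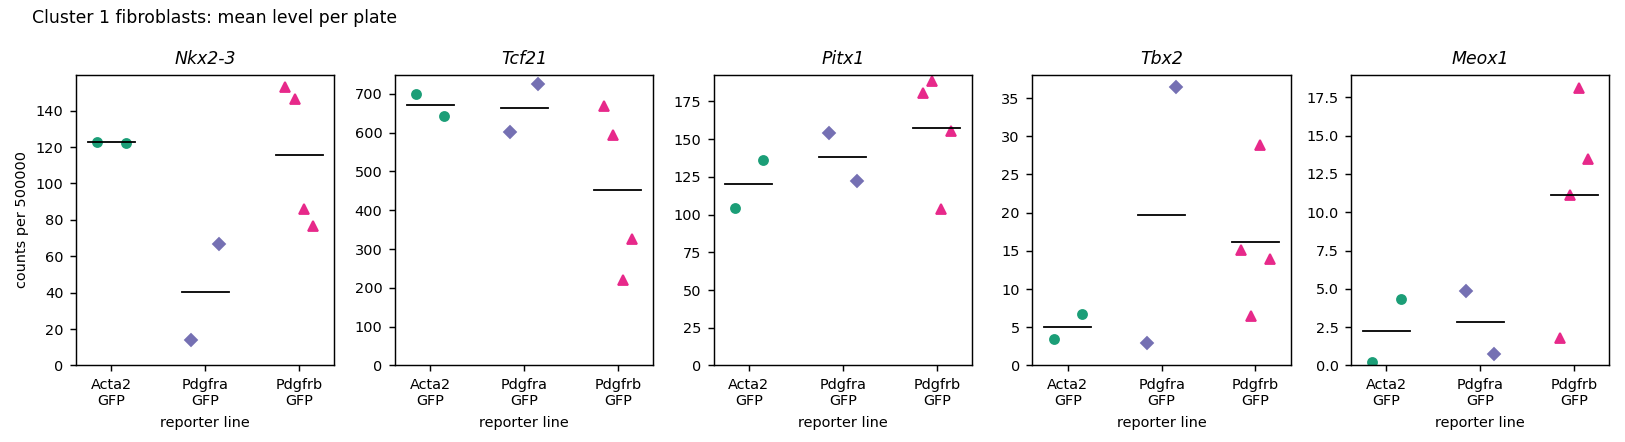
Mean level per plate (vertical axes, counts per 500000 from 0, each panel with its own scale) of 5 genes in cluster 1 fibroblasts of 3 reporter lines (horizontal axes), with bars at the mean of the plates. The 2 PdgfraGFP points of *Nkx2-3* (14.1 and 66.7) lie below those of the other lines, and the PdgfrbGFP points of *Tcf21* range from 220.8 to 669.

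The 10 genes were set beside 67 related transcription factors that the table holds: other T-box, bHLH, paired-type and NK homeobox genes, the E-protein partners and ID inhibitors of bHLH factors, other patterning factors and factors of epithelial-mesenchymal transition. At the apex 12 of the 40 tested were called by edgeR, 7 higher and 5 lower, with a median log2 fold change of -0.79, where 6.28% of all genes were called. The E-protein gene *Tcf4* and 3 of the ID genes were higher, *Id1* by 5.02 (standard error 0.46, edgeR adjusted p = 7.06e-07). *Tbx4* and *Tcf23* had the largest fold changes, at low levels: *Tbx4* had 8.79 ± 7.62 (SD, n = 3 lines) at the apex, with 0 in 1 line, and *Tcf23* had 6.60 on average. The lower ones included *Osr1*, *Zeb2*, *Meis1* and *Meis2*, of which *Osr1*, a zinc finger factor of early mesoderm, fell by 4.25 on the log2 scale (standard error 0.94, edgeR adjusted p = 0.00787). In cluster 7 against cluster 1, 3 of 40 were called, where 0.488% of all genes were and 24.5% of these were higher. The 3 were lower: *Id1* (-4.02), *Snai1* (-2.30) and *Id3* (-1.94). At the apex *Snai1*, a repressor known from epithelial-mesenchymal transition, was higher by 2.31 (standard error 0.32, edgeR adjusted p = 9.76e-05). Thus *Id1*, *Id3* and *Snai1*, like *Tbx2*, were lower in cluster 7 than in cluster 1 and higher at the apex than in the mean of clusters 1, 5 and 7, comparisons that share the sums of clusters 1 and 7.

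Between fibroblasts and mural cells 6 of 38 related factors were called by edgeR, 4 higher and 2 lower in fibroblasts, with a median log2 fold change of 0.57, where 6.57% of all genes were called. The largest fold changes were those of *Barx1* (-8.86), *Tcf15* (-7.98) and *Osr2* (4.20). The first 2 are set against fibroblasts near 0: *Barx1* had at most 0.249 and *Tcf15* at most 0.0703 on average in any fibroblast cluster, and 3.98 and 16.8 in vascular SMC. *Twist2*, the paralog of *Twist1*, was higher in fibroblasts (log2 fold change 2.24, standard error 0.50, adjusted p = 0.0282). *Twist2* had 45.1 ± 20.4 (SD, n = 3 lines) in cluster 7, 33.2 ± 13.6 (SD, n = 4 lines) in cluster 5 and 20.2 ± 3.99 (SD, n = 3 lines) at the apex, where *Twist1* held 4 counts, but 0.509 ± 0.324 (SD, n = 2 lines) in cluster 6. *Prrx2* had 5.88 ± 3.59 (SD, n = 3 lines) at the apex, where *Prrx1* was near 0, and its apex log2 fold change of 1.20 was not called (edgeR adjusted p = 0.747). *Tbx1* and *Tbx5* did not pass 0.165 on average in any cluster, *Tbx15* did not pass 0.669, and *Tbx20* reached 2.76 in pericytes. In the other 3 comparisons of clusters and in both of lines 0 related factors were called, of 40 and 28 tested.

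For each member the 3 genes with the most similar pattern over the 21 sums, by Pearson's r of log2(share of counts per 500000 + 1), are given as a description. The sums of a line share its plates and depth. *Tbx3* was most like *Lama5* (r = 0.955), *Nes* (0.915) and *Prdm1* (0.904), *Tbx2* most like *Epas1* (0.938), *Tpm1* (0.928) and *Gcnt2* (0.905), and *Tcf21* most like *Rarres2* (0.918), *Lrrc61* (0.912) and *Hpse* (0.899). For *Meox1* these were *Gm37035* (0.875), *P2ry1* (0.856) and *Bdkrb2* (0.841), and for *Meox2* they were *Alkal2* (0.849), *Hoxb2* (0.838) and *Hoxb3os* (0.836). *Twist1* came nearest to *Hoxb5* (0.886), *Ezr* (0.869) and *Ebf1* (0.831), and *Prrx1* to *Ebf1* (0.894), *Enpep* (0.856) and *Cd81* (0.845), so *Ebf1* was shared by these 2 members under Pearson's r, but by Spearman's rho it was among the 3 nearest genes of *Twist1* and not of *Prrx1*. For *Pitx1* the genes were *Gm28760* (0.877), whose span overlaps exon sequence of *Pitx1*, *Syt13* (0.863) and *Fat4* (0.851). *Nkx2-3* had no close match, with *Mrps30* (0.739), *Tmsb15l* (0.722) and *Gpr45* (0.705), and the matches of *Tbx18*, *Gm42603* (0.970), *Epyc* (0.969) and *Gm42517* (0.940), rest on the few sums with counts.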

How the data were processed

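Per the labels and the study's methods, cells were sorted into multiwell plates and sequenced by SmartSeq2 as single 50-base reads without molecular identifiers. The authors trimmed the reads, aligned them to GRCm38 with TopHat2 and Bowtie, and counted them per gene with featureCounts. The deposited values are whole-number counts per gene and cell, and cells with too few counts or with too few or too many genes had been removed by the authors, as had cells with signatures of other cell types or without *Pdgfra* and *Pdgfrb*. Whether the counting used strand is not given in the sources used here. The 92 spike-in rows, 1.36% of counts, were left out. Symbols came from GENCODE vM21 by Ensembl identifier.

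Groups, clusters and plates came from the labels, and the order of the clusters along the crypt from the series' design text and the study. Counts of the cells of a cluster and reporter line were summed where at least 10 cells were present. Sums were tested by edgeR 4.0.16 (glmQLFit and glmQLFTest, TMM, filterByExpr with a minimum count of 10) in R 4.3.3, with Benjamini-Hochberg adjustment over all genes and a threshold of 0.05. Class sums were fitted on their own, the 8 clusters in 1 fit, and cluster 1 plates in 1 fit. As the labels name no mouse, p-values measure only the spread between these sums. The script was tested on simulated data. Levels, shares with Clopper-Pearson intervals at 95%, a floor of 3 counts, thinning to 50000 counts and similarity, on log2 values with a pseudocount of 1, were computed with Python 3.11.15.

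Alternatives were DESeq2 1.42.0, limma 3.58.1 on means per cell of log2 values, no filter on low counts, sums of at least 3 cells, plates in place of lines, the reporter line as a replicate block, cluster 5 in place of cluster 1, and leaving out each line or plate. The line pairs sums of the same mice or strain: deviations of fibroblast and mural sums of a line correlated at 0.152 to 0.175, and those of clusters 7 and 1 at 0.121 to 0.17, while for clusters 6 and 2 the values were 0.0381 and 0.0907. The genes described are all 10 members and a list of related factors, and the members and lists were chosen with earlier results of these data known. Of the related list, 67 of 68 genes were in the table, and those named were called in a comparison or are paralogs of a member. Some members of that list are counted but not reported here by name.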

Additional observations from a re-analysis of the deposited data

Results flagged for a closer look

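In groups of 4 lines or plates, 4 of 40 groups held a value far from the other 3 by Dixon's criterion, where chance gives about 1 in 20 for normally distributed values, which those of *Tbx18*, mostly 0 and carried by few cells, are not. *Tcf21* over fibroblasts of Cspg4dsRED had 168.4 counts per 500000, against 304.3 to 312.4 in the other lines. *Tbx18* in cluster 5 of Acta2GFP had 2.92, against 0 to 0.441 in the other lines. *Tbx18* in cluster 5 on PdgfrbGFP plate 075s had 0.881, with the other plates of that line at 0. *Tbx3* in cluster 5 of PdgfrbGFP had 3.45, against 0.105 to 0.370 in the other lines.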

How the results depend on the processing

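Of the 27 results on members followed over the alternatives, 12 were called: 24 values under an alternative lost the call, 18 gained one and 0 reversed. Of 517 values under an alternative for the other 51 results on members, which edgeR did not call, 44 were of the other sign. With DESeq2 the share of genes called was 15.3% between fibroblasts and mural cells (members 2), 9.48% at the apex, 2.86% between clusters 7 and 1 (members 4), 8.97% between clusters 6 and 2, 5.57% in pericytes and 5.14% in interstitial SMC (members 5) against vascular SMC, and 0.146% and 2.64% between lines. With limma the members called were 2, 3, 1 and 2 for fibroblasts, the apex, clusters 7 and 1, and interstitial SMC. The genes called with limma were 6.62% (fibroblasts), 6.35% (apex), 1.32% (clusters 7 and 1), 3.39% (6 and 2), 2.95% (pericytes) and 3.71% (interstitial SMC). Plates in place of lines gave 16.1% (fibroblasts), 10.4% (apex), 2.61% (clusters 7 and 1, members 4), 3.3% (6 and 2, members 1), 2.7% (pericytes) and 3.84% (interstitial SMC). With at least 3 cells a sum, 0.814% of genes were called between clusters 7 and 1, 0.635% and 0 members between clusters 6 and 2, and 1.92% and 3 members in interstitial SMC. Without the filter, which enlarges the number of genes tested, 3.81% were called for fibroblasts and 0.0186% and 0.041% between lines. With the reporter line as a replicate block, 3.08% (fibroblasts) and 0.773% (clusters 7 and 1) were called, and no call of a member changed outside interstitial SMC, which have 1 sum. Leaving out 1 line gave 1.81% to 5.81% for fibroblasts (members 0 to 2), 2% to 7.41% at the apex (2 to 5), 0.0709% to 0.813% for clusters 7 and 1 (1 to 2), 0.0236% to 2.21% for 6 and 2 (0 to 2), 0.226% to 0.974% in pericytes (0 to 1) and 0.485% to 1.64% in interstitial SMC (1). Leaving out 1 plate gave 0% for Acta2GFP and 0% to 0.028% for PdgfraGFP. Except where a setting changes the samples or genes tested, the cause was not tested.

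Of 80 levels 64 moved by less than the spread between lines when taken from summed counts, and 83 shares of cells moved with thinning while 17 did not. Of 30 genes most like a member 12 were shared with Spearman's rho. The line comparisons with at least 3 cells a plate use the same plates and were not run. The results on *Tbx18*, *Twist1*, *Prrx1* and *Meox2* are limited by low clusters that hold few counts or none, and the part of depth in this was not tested. Cluster 8 has 1 line with at least 10 cells.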
